A study of Mus musculus with 9 samples.

Results

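Hmox1 and 9 genes of the Nrf2 antioxidant pathway were followed in hippocampus of mice that underwent cecal ligation and puncture (CLP). This operation lets gut bacteria leak into the abdomen and is a standard model of sepsis. The genes were chosen by name, with earlier results of these data known. They were the transcription factor gene Nfe2l2 (its protein is Nrf2), its repressor Keap1, and the target genes Hmox1, Nqo1, Slc7a11, Gclm, Gsr, Txnrd1, Srxn1 and G6pdx. All 10 were found among the 38911 genes of the deposited table, after counts of the RefSeq transcripts of each gene were summed. The mice were adult BALB/c animals kept specific-pathogen-free, in 3 groups of 3: a sham operation (CTL), CLP alone (named SAE, sepsis-associated encephalopathy, in the titles), and CLP with 200 mg/kg of CCLF, the flavonoids of the plant Cuscuta chinensis. The mice with CCLF had therefore also been operated. The sources used here do not give age beyond adulthood, sex, the time after surgery or the route of CCLF.

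Nrf2 is held in the cytoplasm by Keap1, which hands it to a Cul3 ubiquitin ligase for destruction. Oxidants and electrophiles modify Keap1, Nrf2 then enters the nucleus, pairs with a small Maf protein and binds antioxidant response elements near genes for glutathione synthesis, thioredoxin recycling, NADPH supply, quinone reduction and haem breakdown. In brain this programme is known to be strongest in astrocytes, while Hmox1 is readily induced in microglia and macrophages, also by signals other than Nrf2. The series title names the PI3K/AKT/Nrf2/HO-1 pathway, and HO-1 (haem oxygenase 1) is the protein of Hmox1.

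Library totals ran from 4626519 to 4895474 counts. Genes that brain tissue is known to raise in systemic inflammation were low with the CLP label: of 10 such genes 8 were tested and all 8 were lower, and their summed level was 3701 to 5366 CPM (counts scaled to a common library size) with the sham label and 20.2 to 33.0 CPM with the CLP label. This is opposite to the direction the labels would lead one to look for, so groups are named by their labels throughout. Whether the sham and CLP labels were exchanged was not tested, and if they were, every direction given here would turn. The CCLF columns also stood apart. Of 90211 transcripts without a count in any of the other 6 libraries, 0 had a count in a CCLF library, whereas 3046 transcripts were counted in libraries labelled sham only and 2918 in those labelled CLP only. Across transcripts, each CCLF library had a Spearman correlation of 0.875 to 0.884 with the sham-labelled and CLP-labelled libraries, above those within the sham label (0.829 to 0.831) and within the CLP label (0.832 to 0.833). Of 3912 genes called between the other 2 groups, 96.8% had a CCLF mean between both group means. Among the CCLF columns some genes had counts closer together than counting noise alone would usually leave them. Such genes were Tkt with 2673, 2674 and 2674 and Gstm5 with 1764, 1775 and 1769. Others spread widely, such as Hmox1 with 188, 324 and 144. Whether the CCLF columns are independent libraries was not tested, and their values are given below as a description only. Of 14 listed neuronal markers 11 were tested, with 5 higher and 1 lower with the CLP label. Over all tested genes 23.7% were higher and 23.9% lower. The summed level of the neuronal list was 11164 to 11571 CPM with the sham label and 12399.7 to 12828 with the CLP label. It was 12093 to 12484 CPM in the CCLF libraries. Most of that was Slc17a7 and Nrgn, genes of excitatory neurons, while the pan-neuronal Snap25 had only 7 to 16 counts, the inhibitory-neuron gene Gad1 12 to 24, and Spink8 was at 0.

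Regulatory sequence near the start of these genes gives the context in which Nrf2 is known to act. RefSeq promoter windows (GRCm38.p6, 250 bases before to 50 bases after a gene's start) were available for 8 of the 10 genes, and Hmox1 and Gsr had none. The core of the antioxidant response element was searched as TGACNNNGC on both strands. It was present in a window of 5 of the 8 genes (Nfe2l2, Gclm, Txnrd1, Srxn1 and G6pdx), and in 12.4% of the 32851 windows of all genes (14% of 27025 genes). The related AP-1 motif TGANTCA, which was also searched on both strands, was in a window of 1 of the 8 genes (Srxn1), in 7.81% of all windows, and no printed match overlapped it. Matches and calls did not always go together. Keap1 and Slc7a11 were lower in the libraries labelled CLP and held no match, while Srxn1 held a match and did not pass the test. Sequence outside these short windows was not searched, so a gene without a match may hold the element elsewhere. Shown are the 250 bases before the start of 3 genes that were lower with the CLP label and held a match (Nfe2l2, Gclm, G6pdx). Those of Nqo1, which did not pass the test and held no match, are also shown. For Srxn1, 28 bases around the match are given, which lies just after the start. Capitals mark the match.
Nfe2l2, chr2:75704664-75704913, minus strand: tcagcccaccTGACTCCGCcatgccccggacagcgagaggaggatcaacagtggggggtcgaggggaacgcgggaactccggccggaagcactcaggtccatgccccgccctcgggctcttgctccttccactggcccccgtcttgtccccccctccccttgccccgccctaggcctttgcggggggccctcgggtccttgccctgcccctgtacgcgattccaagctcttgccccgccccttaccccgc
Gclm, chr3:122245307-122245556, plus strand: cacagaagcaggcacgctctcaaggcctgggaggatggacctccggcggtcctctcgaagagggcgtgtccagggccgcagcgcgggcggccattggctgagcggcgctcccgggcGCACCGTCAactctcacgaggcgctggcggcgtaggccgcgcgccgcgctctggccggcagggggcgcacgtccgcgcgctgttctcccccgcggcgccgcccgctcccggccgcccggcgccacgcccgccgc
G6pdx, chrX:74428881-74429130, minus strand: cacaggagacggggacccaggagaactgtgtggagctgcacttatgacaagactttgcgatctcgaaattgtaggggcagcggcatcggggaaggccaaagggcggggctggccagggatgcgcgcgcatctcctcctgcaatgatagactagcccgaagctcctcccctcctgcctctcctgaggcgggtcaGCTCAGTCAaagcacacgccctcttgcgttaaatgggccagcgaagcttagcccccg
Nqo1, chr8:107403206-107403455, minus strand: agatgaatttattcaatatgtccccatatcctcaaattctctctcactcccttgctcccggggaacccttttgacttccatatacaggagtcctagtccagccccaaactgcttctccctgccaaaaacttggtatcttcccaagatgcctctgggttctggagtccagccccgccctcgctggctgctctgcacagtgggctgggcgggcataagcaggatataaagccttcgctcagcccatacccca
Srxn1, chr2:152105544-152105571, plus strand: agtgggcaGCTAGGTCAgagtgagacac
The match began 240 bases before the start of Nfe2l2, 134 before that of Gclm and 57 before that of G6pdx. In Gclm, G6pdx and Srxn1 it was on the strand opposite to the gene. A match is a run of letters and not a shown binding site, and no binding was measured here.

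In the libraries labelled CLP, 7 of the 9 tested genes were lower than in those labelled sham and 0 were higher (edgeR's quasi-likelihood test over the 6 libraries, adjusted p under 0.05 over 8213 genes). Hmox1 fell 4.36-fold, Keap1 2.11-fold, Slc7a11 1.79-fold, Gsr 1.76-fold, Nfe2l2 1.41-fold, Gclm 1.38-fold and G6pdx 1.27-fold. Nqo1 and Srxn1 did not pass the test, and Txnrd1 had too few counts to be tested. Over all tested genes 47.6% were called, 23.9% lower and 23.7% higher, so a lower call was common in this table. The median log2 difference was −0.50 over the 9 tested genes and 0.005 over all tested genes. The Nrf2 genes followed here were chosen with earlier results of these data known. Neither this median nor the number of calls is therefore independent support. Levels of the 2 groups did not overlap in 8 of the 9 tested genes, and in 55.6% of all tested genes. All 7 calls held under each alternative fit and without any 1 library.

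**Figure D1:**
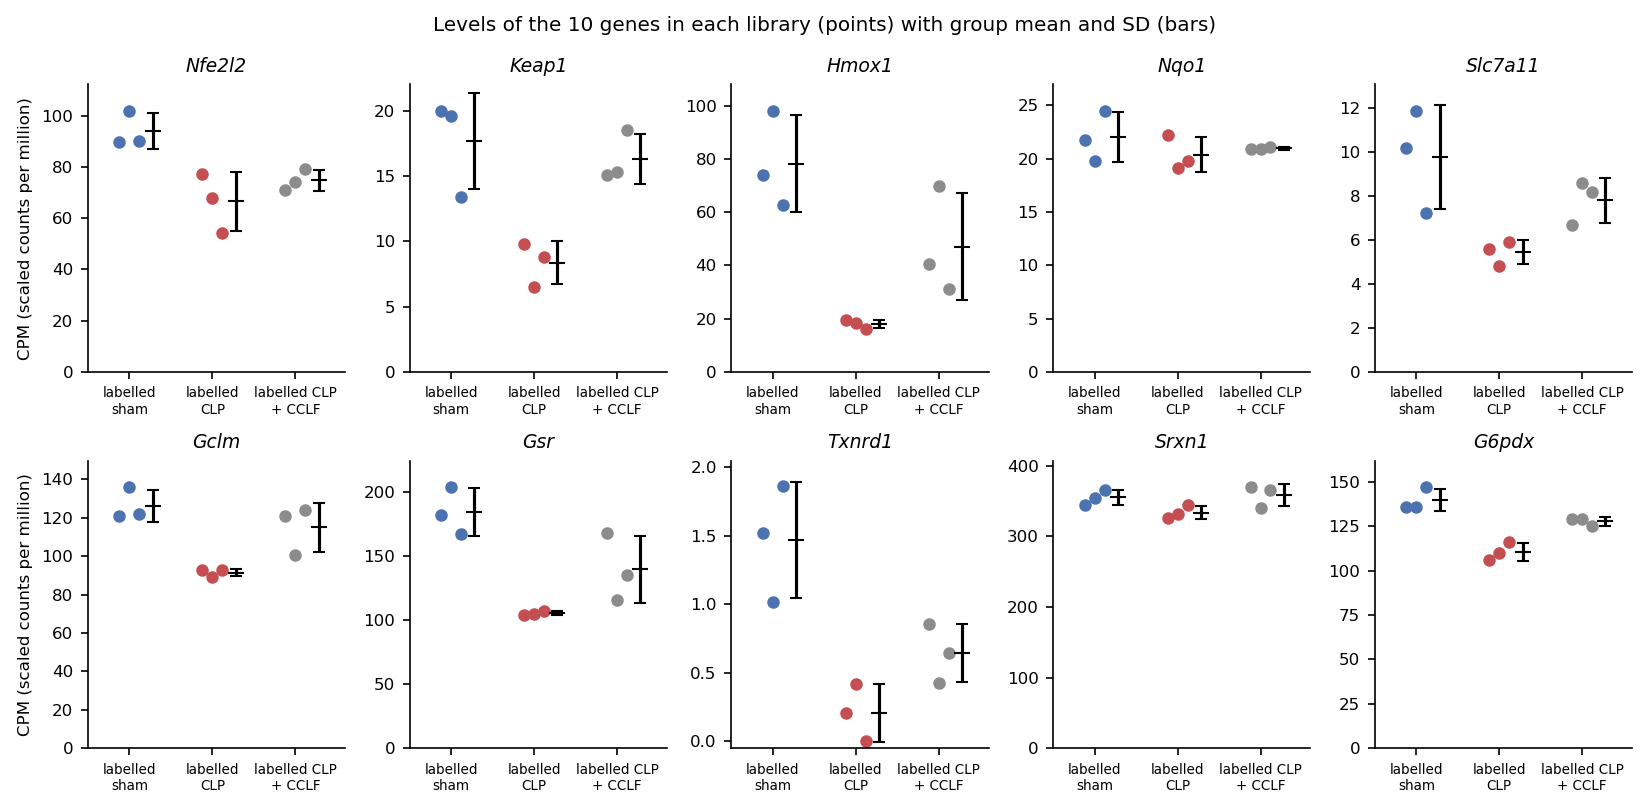
Level of each of the 10 genes in CPM (vertical axes, from 0 except for Txnrd1, whose axis begins just below 0) in the 3 libraries of each labelled group (points), with the group mean and SD (bars). Hmox1 lies between 62.7 and 98.2 CPM with the sham label and between 16.1 and 19.3 with the CLP label, while the Nqo1 groups overlap.

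**Figure D2:**
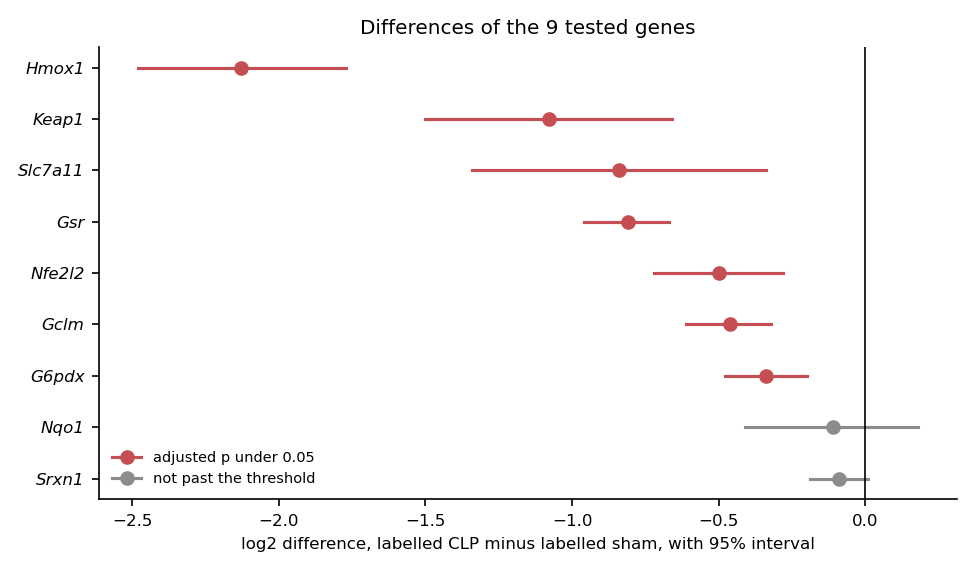
Log2 difference, labelled CLP minus labelled sham, of the 9 tested genes (points) with its approximate 95% interval (lines). Hmox1 has the largest difference of the 9, at −2.13, and the intervals of Nqo1 and Srxn1 cross 0.

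Nfe2l2, which encodes Nrf2, had 413, 497 and 438 counts in the libraries labelled sham (replicates 1 to 3) and 373, 322 and 267 in those labelled CLP. Every library labelled sham was above every one labelled CLP. The level fell from 93.9 ± 6.78 to 66.5 ± 11.5 CPM (mean ± SD, n = 3; log2 difference −0.50 ± 0.11 SE, adjusted p = 0.00079 by edgeR). The CCLF libraries had 330, 344 and 368 counts, or 71.0, 74.0 and 79.2 CPM, of which the third was just above the range of the CLP label (54.4 to 77.4 CPM).

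The Nfe2l2 sum joins a coding transcript (NM_010902.4) and a transcript that RefSeq lists as non-coding (NR_132727.1), and these differed in size of change. The coding transcript had 366, 428 and 387 counts with the sham label and 370, 316 and 267 with the CLP label, so the raw counts of the 2 groups touched. In a fit of 8539 transcripts it fell by 0.32 on the log2 scale (SE 0.10, adjusted p = 0.0125 by edgeR), and without CLP replicate 3 the difference was −0.20 (adjusted p = 0.099, in a range of 0.00152 to 0.099 over the alternatives). The non-coding transcript had 47, 69 and 51 counts with the sham label against 3, 6 and 0 with the CLP label, a log2 difference of −4.17 ± 0.42 (adjusted p = 1.77e-08 by edgeR). Of all tested transcripts 47.4% were called.

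The non-coding transcript thus made up a different share of the Nfe2l2 counts in the 2 groups. It was 11.4% (95% Wilson interval 8.67 to 14.8), 13.9% (11.1 to 17.2) and 11.6% (8.97 to 15.0) in the libraries labelled sham. With the CLP label it was 0.804% (0.274 to 2.34), 1.86% (0.857 to 4.0) and 0 of 267 counts, for which the limit of 3 counts is a share of 1.12% and the upper Wilson bound 1.42%. The means were 12.3% ± 1.38 and 0.889% ± 0.935 (SD, n = 3; two-sided exact permutation test p = 0.1, the smallest that 3 against 3 libraries can give). In the CCLF libraries the share was 2.42%, 1.45% and 5.43%. These intervals cover counting error only. They do not cover how reads shared by both transcripts were assigned. The submitters' notes name Salmon, without its settings or index.

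**Figure D3:**
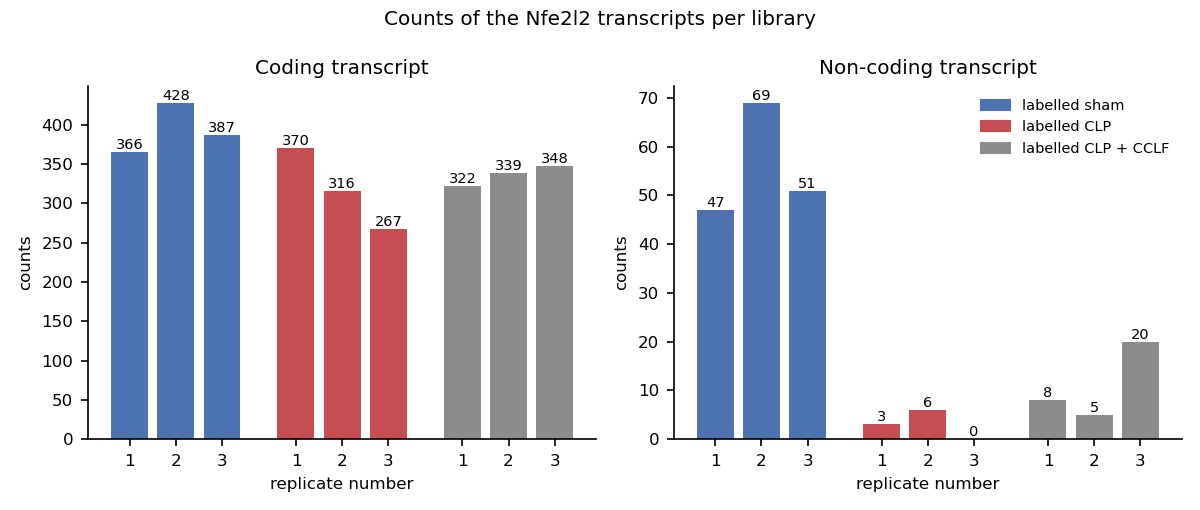
Counts of the coding (left) and non-coding (right) Nfe2l2 transcript in each of the 9 libraries (bars, by replicate number). The coding transcript runs from 267 to 428 counts over the libraries labelled sham and CLP, and the non-coding one from 47 to 69 with the sham label and from 0 to 6 with the CLP label.

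Keap1, which encodes the adaptor that holds Nrf2, had 92, 96 and 65 counts in the libraries labelled sham and 47, 31 and 43 in those labelled CLP. The groups did not overlap, though sham replicate 3 was well below the other 2. The level fell from 17.7 ± 3.70 to 8.35 ± 1.66 CPM (n = 3; log2 difference −1.08 ± 0.20, adjusted p = 0.000105 by edgeR). The CCLF libraries had 70, 71 and 86 counts, inside the range of the sham label. The gene of Nrf2 and the gene of its repressor were therefore both lower with the CLP label.

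Hmox1 encodes the inducible enzyme that opens the haem ring and frees iron, carbon monoxide and biliverdin. It had 341, 480 and 304 counts in the libraries labelled sham and 93, 88 and 79 in those labelled CLP. The 3 CLP-labelled values lay close together and far below the lowest sham-labelled one. The level fell from 78.3 ± 18.1 to 18.0 ± 1.66 CPM (n = 3; log2 difference −2.13 ± 0.16, adjusted p = 1.05e-07 by edgeR). The CCLF libraries had 188, 324 and 144 counts, and replicate 2 of them, at 69.7 CPM, was inside the range of the sham label (62.7 to 98.2 CPM) while the other 2 were between the groups.

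Markers of cells that can express Hmox1 moved as well, and their part in the Hmox1 difference was not tested. Of 12 listed macrophage and monocyte genes 4 were tested, with 1 higher and 3 lower with the CLP label. The summed level of the list was 343 to 545 CPM with the sham label and 24.9 to 32.8 with the CLP label. Most of the sham-labelled sum was Marco and Msr1, with means of 327 and 94.4 CPM against 0.208 and 0.621 with the CLP label. Lyve1 fell from 12.3 to 3.74 CPM, whereas Mrc1 rose from 7.87 to 21.8 CPM. In that list Cd163, F13a1, Ccr2, Ly6c2 and Plac8 were at 0 in these 6 libraries. Of 12 neutrophil genes 2 were tested and both were lower (49.9 to 74.4 and 4.69 to 6.10 CPM in all), with S100a9, Ly6g, Cxcr2 and Csf3r at 0. Of 12 microglial genes 6 were tested and all 6 were higher (433 to 567 and 762 to 826 CPM), with P2ry12 and Gpr34 at 0. Of 10 red blood cell genes 5 were tested, with 0 higher and 2 lower (602 to 634 and 490.5 to 594 CPM), and Alas2, Bpgm and Epb42 were at 0. For comparison, 23.7% of all tested genes were higher and 23.9% lower, so calls were common. In such bulk tissue fewer cells of a type and less RNA per cell cannot be told apart.

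The 5 tested genes whose levels over the 9 libraries were most like those of Hmox1 were Pdk4, Gm52210, Ltbr, Ifi35 and Dusp2. Likeness was the root mean square difference of log2 CPM, each gene centred on its own mean, and it was 0.215 for Pdk4 and 0.246 for Dusp2. Pdk4, a kinase that restrains pyruvate dehydrogenase, had mean levels of 151, 44.8 and 97.2 CPM with the sham, CLP and CCLF labels. Ltbr, the lymphotoxin beta receptor, had 91.1, 27.9 and 63.7 CPM, and Ifi35, an interferon-induced gene, had 34.4, 8.59 and 17.7. These libraries share their groups and their scaling.

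Nqo1, a quinone reductase long used as a readout of Nrf2, had 100, 97 and 119 counts with the sham label and 107, 91 and 97 with the CLP label. The groups overlapped. The levels were 22.0 ± 2.36 and 20.4 ± 1.61 CPM (n = 3), a log2 difference of −0.11 with a 95% interval of −0.41 to 0.18 (adjusted p = 0.544 by edgeR). The interval includes falls of up to 0.41 on the log2 scale and excludes one of the size seen for Hmox1. The CCLF libraries had 97, 97 and 98 counts.

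All 3 genes of glutathione supply and recycling were lower with the CLP label. Slc7a11, the cystine carrier that brings in the limiting building block of glutathione, had 47, 58 and 35 counts with the sham label and 27, 23 and 29 with the CLP label, which did not overlap. It fell from 9.76 ± 2.35 to 5.45 ± 0.553 CPM (n = 3; log2 difference −0.84 ± 0.24, adjusted p = 0.00572 by edgeR). Its CCLF counts were 31, 40 and 38. At this depth Slc7a11 had the widest interval of the 9 genes, from −1.34 to −0.34.

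Gclm, the modifier subunit of the enzyme that makes gamma-glutamylcysteine, had 556, 663 and 591 counts with the sham label and 447, 424 and 454 with the CLP label. The CLP-labelled libraries were tightly grouped and all below the sham-labelled ones. The level fell from 126 ± 8.33 to 91.5 ± 2.00 CPM (n = 3; −0.46 ± 0.07, adjusted p = 1.04e-05 by edgeR). Of the CCLF libraries, with 563, 467 and 575 counts, replicates 1 and 3 were at 121 and 124 CPM, inside the range of the sham label, and replicate 2 at 100.4 CPM was below it.

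Gsr, the reductase that returns oxidised glutathione to its working form with NADPH, had 838, 998 and 810 counts with the sham label and 501, 497 and 524 with the CLP label. It fell from 184 ± 18.7 to 105 ± 1.52 CPM (n = 3; −0.81 ± 0.07, adjusted p = 1.53e-09 by edgeR), with no overlap. The CCLF libraries had 780, 538 and 625 counts, so the library that was highest for Hmox1 (replicate 2) was the lowest for Gsr.

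Of the 2 members of the thioredoxin system, Srxn1 did not pass the test and Txnrd1 was below the filter. Srxn1, sulfiredoxin, which repairs over-oxidised peroxiredoxins, had 1591, 1737 and 1775 counts with the sham label and 1573, 1575 and 1689 with the CLP label. Its scaled levels were 355 ± 10.4 and 334 ± 9.29 CPM (n = 3) and the groups did not overlap on that scale by a narrow margin, 345 CPM being the lowest with the sham label and 344 the highest with the CLP label. The log2 difference was −0.09 with a 95% interval of −0.19 to 0.01 (adjusted p = 0.115 by edgeR). The CCLF libraries had 1719, 1583 and 1696 counts.

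Txnrd1, cytosolic thioredoxin reductase, had 7, 5 and 9 counts with the sham label, 1, 2 and 0 with the CLP label and 4, 2 and 3 with CCLF. Its CPM ratio, sham label over CLP label, was 7.06 with a 95% exact counting interval of 2.11 to 37.0, from 21 and 3 counts in all. This interval pools the libraries of a label and covers counting error only, not differences between mice. Txnrd1 passed the test where the filter on low counts was loosened (adjusted p = 0.00637 at 1 CPM in 3 libraries and 0.011 with no filter, edgeR). It met the filter of 1 CPM in 3 libraries only through the sham label (1.02 to 1.86 CPM, against 0 to 0.421 with the CLP label). That call therefore adds no support of its own.

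G6pdx, glucose-6-phosphate dehydrogenase, the first NADPH-yielding step of the pentose phosphate pathway, had 629, 665 and 713 counts with the sham label and 510, 522 and 571 with the CLP label. All sham-labelled libraries were higher. The level fell from 139.8 ± 6.22 to 111 ± 5.36 CPM (n = 3; −0.34 ± 0.07, adjusted p = 0.00018 by edgeR). The CCLF libraries, at 601, 599 and 580 counts, lay between the groups without reaching either.

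The mean of the CCLF libraries was between the other 2 group means in 9 of the 10 genes, all 7 called ones included, and above both in Srxn1. That position was the usual one, at 96.8% of all called genes. The CCLF libraries did not share one order: replicate 1 was the highest of the 3 in 4 genes, replicate 2 in 2 (Hmox1 and Slc7a11) and replicate 3 in 4. Among the libraries labelled sham, replicate 2 was the highest in 5 genes (Nfe2l2, Hmox1, Slc7a11, Gclm and Gsr), and without it Hmox1 still fell by 1.93 on the log2 scale.

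How counts were divided among transcripts differed between these genes. Hmox1, Nqo1, Gsr, Srxn1 and G6pdx have 1 RefSeq transcript in the table. Keap1 has 4 and Slc7a11 has 5, and in each only 1 transcript had counts. Txnrd1 has 4, of which 2 had counts, and Gclm 2, of which the second had 1 to 8 counts per library. The submitters' notes name Salmon without its settings, and how reads shared by transcripts were treated is not described further. The sums of Keap1, Slc7a11 and Txnrd1 may therefore not stand for the whole gene. For the same reason the split of the Nfe2l2 counts between its coding and non-coding transcripts is uncertain. Genes that overlap Gclm, Gsr, Txnrd1 and G6pdx had 0 to 16 counts per library, and whether counting used the strand is not given either.

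Other regulators and enzymes of the pathway moved in both directions. Of 116 such genes in 6 lists 53 were tested, and 12 were higher and 14 lower with the CLP label (49.1% called, against 47.6% of all genes), with a median log2 difference of 0.03. The share of calls in these wider lists was near that of the table, in both directions. The genes named next are up to 4 per list with the highest levels.

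Among regulators 2 of 5 tested genes were lower and 0 higher. Mafk, a small Maf partner of Nrf2, fell from 10.3 ± 1.47 to 6.62 ± 1.25 CPM (n = 3; −0.63 ± 0.22, adjusted p = 0.0223 by edgeR), a call that ended with DESeq2 (adjusted p = 0.0854), with only its highest transcript (−0.35, adjusted p = 0.268) and without sham replicate 1 or 3 or CLP replicate 1 or 2 (0.0653 to 0.103 by edgeR), which is 6 of 15 alternatives. Rbx1, the RING subunit of the Cul3 ligase, had a difference of −0.12 ± 0.05 (adjusted p = 0.0416 by edgeR), a call that ended under 9 of 15 alternatives. These were DESeq2 (0.0856), upper-quartile scaling (0.193), no filter (0.127), 1 CPM in 3 libraries (0.0521), the replicate block (0.0501) and leaving out sham replicate 1 or 2 or CLP replicate 1 or 2 (0.0584 to 0.186). Nfe2l1 and Nfe2l3, relatives of Nrf2, had differences of 0.17 ± 0.24 and 0.06 ± 0.17. Of haem and iron genes 1 was higher and 1 lower of 4. Ftl1, ferritin light chain, which stores the iron that haem oxygenase frees, fell from 814 ± 13.9 to 704 ± 21.4 CPM (−0.21 ± 0.04, adjusted p = 0.000104 by edgeR), and the haem carrier Slc48a1 rose from 409.8 ± 16.6 to 458 ± 14.9 CPM (0.16 ± 0.05), a call lost without sham replicate 2 (adjusted p = 0.0573 by edgeR). Flvcr1 and Blvrb had differences of 0.33 ± 0.28 and −0.05 ± 0.37.

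Glutathione genes other than the 3 above had 4 higher and 1 lower of 14. Gsta4, a transferase for lipid aldehydes, rose from 117 ± 7.74 to 151 ± 3.97 CPM (n = 3; 0.36 ± 0.07, adjusted p = 7.23e-05 by edgeR). Gstm5, Gstp1 and Mgst3 had differences of 0.05 ± 0.05, 0.31 ± 0.15 and 0.15 ± 0.06 and were not called. Gstp1 was called without CLP replicate 2 (0.45, adjusted p = 3.25e-05 by edgeR), with no filter (0.000225) and with the replicate block (0.021). Mgst3 was called with upper-quartile scaling (0.0206), all 9 libraries (0.0309), its highest transcript (0.0495) or without sham replicate 3 (0.041). Gclc, the catalytic partner of Gclm, had 2.59 ± 0.492 and 2.83 ± 0.542 CPM (0.13 ± 0.36, adjusted p = 0.791).

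Thioredoxin genes had 2 higher and 3 lower of 9. Txn1, thioredoxin itself, fell from 206 ± 7.14 to 164 ± 19.6 CPM (n = 3; −0.33 ± 0.07, adjusted p = 0.000495 by edgeR) and the peroxiredoxin gene Prdx1 from 399.5 ± 13.9 to 364 ± 15.7 (−0.14 ± 0.05, adjusted p = 0.0193), whereas the mitochondrial Prdx3 rose from 179 ± 8.40 to 203 ± 16.5 CPM (0.18 ± 0.06, adjusted p = 0.0179). Txn2, mitochondrial thioredoxin, had a difference of 0.05 ± 0.05. The calls of Prdx1 and Prdx3 were each lost without some single libraries: Prdx1 without sham replicate 3 or CLP replicate 1 or 2 (adjusted p of 0.0684, 0.105 and 0.132) and Prdx3 without sham replicate 2 or CLP replicate 3 (0.103 and 0.105, all by edgeR). That of Prdx1 was also lost with upper-quartile scaling (0.118) and no filter (0.0542), and that of Prdx3 with DESeq2 (0.0565).

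NADPH genes other than G6pdx had 3 higher and 0 lower of 7. Me3, a mitochondrial malic enzyme, rose from 34.3 ± 4.67 to 65.0 ± 5.65 CPM (n = 3; 0.92 ± 0.11, adjusted p = 2.81e-07 by edgeR). Nnt, a mitochondrial transhydrogenase, rose from 98.2 ± 7.74 to 133 ± 5.38 CPM (0.43 ± 0.07, adjusted p = 2.53e-05), and Taldo1, of the pentose phosphate pathway, from 251 ± 11.4 to 295 ± 6.82 CPM (0.23 ± 0.05, adjusted p = 0.000649). Tkt, of the same pathway, had a difference of −0.04 ± 0.04.

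Detoxification and oxygen-radical genes had 2 higher and 7 lower of 14. Sod2, mitochondrial superoxide dismutase, fell from 721 ± 84.9 to 506 ± 23.5 CPM (n = 3; −0.51 ± 0.09, adjusted p = 0.00238 by edgeR), Sod1 from 609 ± 18.5 to 537 ± 9.05 (−0.18 ± 0.04) and the reductase Akr1a1 from 1038 ± 25.6 to 951 ± 23.6 CPM (−0.13 ± 0.04). Cat, catalase, rose from 189 ± 8.99 to 212 ± 5.88 CPM (0.16 ± 0.06, adjusted p = 0.0227 by edgeR), a call lost with DESeq2 (0.0723) and no filter (0.0528). The call of Cat was also lost without sham replicate 2 or 3 or CLP replicate 1 (0.0889, 0.0865 and 0.069), and that of Akr1a1 without CLP replicate 1 (0.0532) and with upper-quartile scaling (0.0711).

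**Figure D4:**
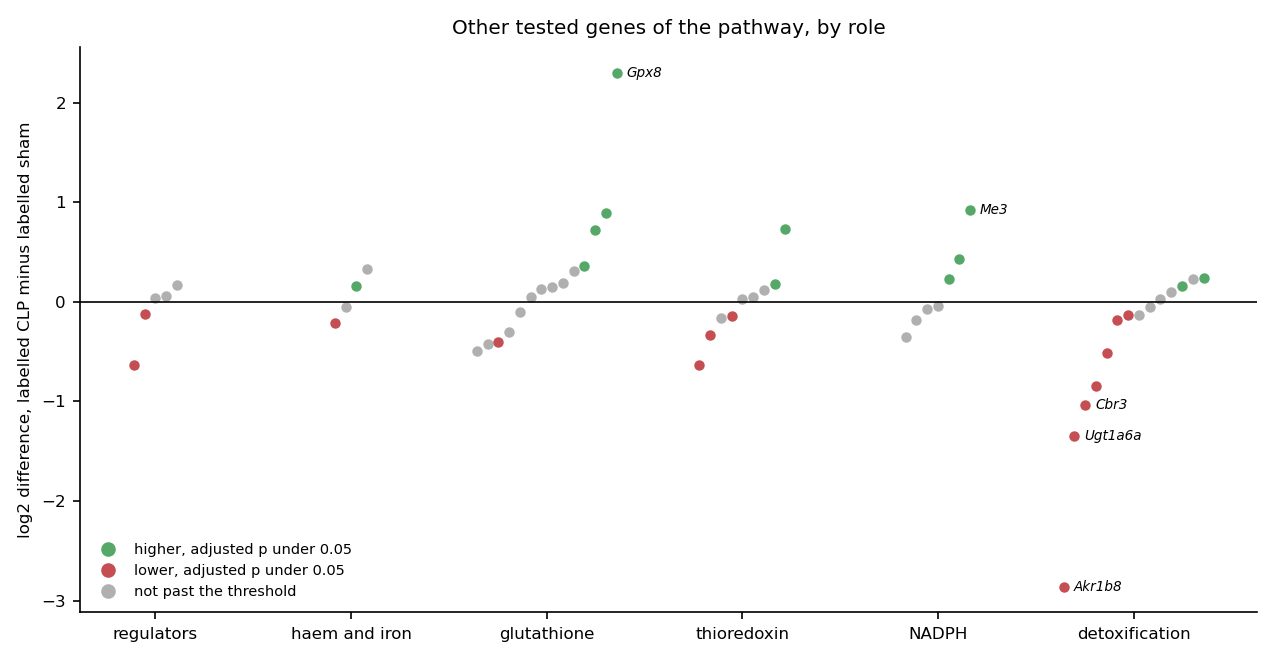
Log2 difference, labelled CLP minus labelled sham (vertical axis), of the 53 other tested pathway genes, in 6 lists by role (horizontal axis); colours show the direction of those past the threshold. Genes lie on both sides of 0 in each list, from −2.86 (Akr1b8) to 2.30 (Gpx8).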

How the data were processed

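Total RNA of mouse hippocampus was depleted of ribosomal RNA and sequenced, per the labels' protocols. The deposited table holds whole-number counts per RefSeq transcript for 9 libraries. Per the submitters' processing notes fastp and Salmon were used; the sources used here give no versions, settings, index or build. All 120312 transcripts were named with the RefSeq table of GRCm38.p6 and summed to 38911 genes, of which 22846 had a count.

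The libraries labelled sham and CLP were compared by the quasi-likelihood F test of edgeR, estimated robustly (scaling by trimmed mean of M values, factors 0.983 to 1.021; filterByExpr by group, 8213 genes). P-values were adjusted by Benjamini-Hochberg, with a call under 0.05. SE is the size of the log2 difference over the square root of F. CPM values use factors over all 9 libraries. Transcripts were fitted likewise. Pooled over transcripts, no pair of libraries within a group agreed within sampling noise (chi-square per degree of freedom 1.83 to 5.7). The pooled value does not describe every gene. In the CCLF libraries some genes, such as Tkt, Gstm5 and Akr1b3 (496, 495 and 497 counts), agreed more closely than counting noise alone would usually allow. The cause was not tested. The fit was also run on simulated data with far fewer changed genes than were called here. That run does not measure its error rate in these data.

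The members and lists were chosen with earlier results of these data known. Named are the 10 members, up to 4 tested genes per pathway list with the highest mean CPM, and the 5 genes most like Hmox1 (those most like Nfe2l2, also part of the rule, are not reported here). Gclc and all 11 other called pathway genes were named after their values were seen. Alternatives were other scalings, DESeq2, limma-voom, other filters, all 9 libraries, a replicate block, the highest transcript per gene and each library left out. Marker lists of astrocyte, endothelial, choroid plexus and oligodendrocyte genes were also counted. Analyses ran in Python 3.11.15 (pandas 2.3.3, scipy 1.17.1) and in R 4.3.3 (DESeq2 1.42.0, edgeR 4.0.16, limma 3.58.1).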

Additional observations from a re-analysis of the deposited data

How the results depend on the processing

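The number of called members was 7 under each alternative except no filter and a filter of 1 CPM in 3 libraries, and 0 were higher in any. In those it was 8 because Txnrd1 was then tested. At 1 CPM in 3 libraries Txnrd1 was kept through the sham label alone. Called genes in all ran from 3186 (DESeq2) to 4318 (all 9 libraries), and called pathway genes from 20 to 30. Leaving out 1 library gave 20 to 27 called pathway genes and 7 to 8 called member transcripts, against 8, the lost one being the coding transcript of Nfe2l2 without CLP replicate 3. Same-numbered libraries labelled sham and CLP did not deviate together (correlations of 0.026, −0.013 and 0.023), so the numbers do not pair them. With the replicate number as a block 3892 genes were called and again 7 members and 8 member transcripts, while Rbx1 lost its call (adjusted p = 0.0501) and Gstp1 gained one (0.021, both by edgeR). The sign turned for uncalled genes only: Flvcr1 was −0.29 with its highest transcript, and Blvrb was 0.07 with its highest transcript and −0.27 to 0.10 without 1 library, with 0.07, 0.01, 0.02 and 0.10 as the values above 0 (sham replicate 2 or 3, or CLP replicate 2 or 3, left out). Gclc was −0.02 to 0.27 without 1 library, and below 0 only without sham replicate 3. The cause was not tested. Of 116 pathway genes 63 were not tested, 21 of them at 0 in all 6 libraries, among them Gpx1, Gss, Gsk3b, Crebbp, Txnip and Mafg.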

Other observations

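Outside the naming rule 11 further pathway genes were called, 5 higher and 6 lower, and all are given here after their values were seen. Akr1b8, an aldo-keto reductase, had 67, 62 and 45 counts in the libraries labelled sham, 7, 8 and 9 in those labelled CLP and 62, 54 and 59 in the CCLF libraries (log2 difference, CLP label minus sham label, −2.86, adjusted p = 1.59e-08 by edgeR). Its CCLF values lay within the range of the sham label, where those of Hmox1 were mostly between the groups. The carbonyl reductase gene Cbr3 had 205, 318 and 212 counts with the sham label, 120, 108 and 134 with the CLP label and 164, 183 and 133 with CCLF (−1.04, adjusted p = 1.66e-05). Ugt1a6a, a glucuronosyltransferase, had 31, 36 and 65, then 22, 14 and 16, then 26, 26 and 19 (−1.35, adjusted p = 0.000585); its family shares most exons among neighbouring transcripts, so its counts are uncertain. Sesn2, a stress-induced sestrin, had 466, 447 and 430 counts with the sham label and 279, 300 and 299 with the CLP label (−0.63, adjusted p = 1.31e-06). Ugdh, which makes the sugar donor for glucuronidation, had 24, 20 and 17 counts with the sham label and 12, 12 and 10 with the CLP label (−0.85, adjusted p = 0.0395, a call lost under 7 of 15 alternatives), and the transferase gene Gsto1 had 507, 566 and 643 against 366, 472 and 479 (−0.40, adjusted p = 0.00255). The highest difference in the other direction was that of Gpx8, a peroxidase of the endoplasmic reticulum, with 7, 5 and 3 counts with the sham label, 34, 19 and 23 with the CLP label and 5, 9 and 13 with CCLF (2.30, adjusted p = 5.35e-05). The mitochondrial glutaredoxin gene Glrx2 had 46, 69 and 87 counts with the sham label and 127, 109 and 143 with the CLP label (0.89, adjusted p = 0.000179), and the transferase gene Gstk1 75, 71 and 86 against 142, 112 and 133 (0.72, adjusted p = 0.000267). Msra, a methionine sulfoxide reductase, had 24, 13 and 37 against 50, 40 and 34 counts (0.73, adjusted p = 0.0445, a call lost under 6 of 15 alternatives), and the carbonyl reductase Cbr1 684, 765 and 773 against 860, 863 and 924 (0.24, adjusted p = 0.00176, all by edgeR).

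Astrocyte markers, of cells in which the Nrf2 programme is known to be strong, had 3 higher and 6 lower of 10 tested. Their summed level was 3695 to 3936 CPM with the sham label and 3831 to 3856 with the CLP label, with Ndrg2 at 0. Most of that sum was Slc1a3, which fell from 2907 to 2526 CPM, while Gja1 rose from 388 to 839. The sum therefore hides changes of less abundant markers, such as Gfap, which fell from 26.6 to 3.79 CPM. Endothelial markers had 4 higher and 1 lower of 6 tested, oligodendrocyte markers 7 higher and 0 lower of 8, and choroid plexus markers 1 higher and 0 lower of 6. For comparison, 23.7% of all tested genes were higher and 23.9% lower. The part of these marker genes in the differences of the Nrf2 genes was not tested.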
